A study of Mus musculus with 140 samples.

Results

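The mouse major histocompatibility region, called H2, was described here through the silencers that a reporter screen listed in it. Its silencers were the listed intervals with a midpoint between 33.9 and 37.3 Mb of chromosome 17 (mm10). The mouse embryonic stem cell (mESC) list had 144 such intervals of 115165, and the mouse embryonic fibroblast (MEF) list had 112 of 89596. Together these were 256 of 204761 listed intervals, and they were chosen by position alone.

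The region holds the class I genes, whose heavy chains present peptides to cytotoxic T cells, and the class II genes, whose chains present peptides to helper T cells. Between them lie genes for complement, heat shock proteins and cytokines of the tumour necrosis factor family, and further along lie Pou5f1, which encodes the pluripotency factor Oct4, and a cluster of olfactory receptors. Many of the class I genes arose by duplication, so that long stretches of their sequence are alike. A silencer is a DNA element that lowers transcription from a promoter. Embryonic stem cells have little classical class I protein on their surface and rely on Pou5f1, which fibroblasts keep silent.

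The screen, Ss-STARR-seq, cloned sheared mouse genomic fragments into a reporter plasmid and sequenced the reporter RNA made in transfected cells beside the plasmid itself. The mESC group comprised 56 reporter RNA libraries in 3 output sets, from cells grown in N2B27-2i/LIF medium; their cell line label is spelled mECSs. The MEF group comprised 64 reporter RNA libraries in 4 output sets, from cells grown in DMEM with fetal bovine serum. A further 20 libraries, titled hPGK-mouse-input, came from the input plasmid that served both cell types. Strains are not named in the labels. Each list is a single table for its cell type, so no value below has a replicate error. The intervals given with shares and densities are exact 95% binomial or Poisson intervals, which cover counting error only, and no difference between the lists was tested. Neither list gives reads or totals, so depth is unknown, and with no expression values the cell types could not be checked against marker genes. A listing in 1 cell type without an overlap in the other does not show that the fragment was inactive there.

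The label of the region matched the annotation. It held 44 of the 45 genes with an H2 symbol in the genome, 33 of them protein-coding. In all, 323 annotated genes lay in it, of which 174 were protein-coding and 84 were pseudogenes. That was 51.2 protein-coding genes per Mb, against 8.68 over the autosomes. The mESC interval just inside the start bound lay at chr17:33906026-33906276 with a fold of 2.10, and the interval just outside it, at chr17:33891588-33891888, had a fold of 3.28. At the end bound, the last mESC interval inside was chr17:37288361-37288511 with a fold of 2.42 and the next one outside was chr17:37311659-37311859 with a fold of 2.04. In the MEF list the first interval inside, chr17:34010901-34011201, had a fold of 2.16 and lay 111 kb past the bound, and the last one before it, chr17:33891611-33891811, had a fold of 2.43. The last MEF interval inside was chr17:37269001-37269301 with a fold of 2.31, and the next one outside was chr17:37331651-37331801 with a fold of 2.46. The fold is the authors' own value for an interval, read here as a linear ratio, and it describes and ranks intervals within a list only.

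Sequences of several kinds carried the results, and the first kind is a fragment of an interspersed repeat. The highest MEF fold, the second highest MEF fold and the highest fold of a pair with identical coordinates in both lists all fell on such fragments. Sequences are of the plus strand of mm10 (GRCm38), 5′ to 3′, from the start to the base before the printed end. Capitals here mark the 20-base words that the members held most often (on either strand).
H2-Ob intron, chr17:34252131-34252181, MEF fold 8.17: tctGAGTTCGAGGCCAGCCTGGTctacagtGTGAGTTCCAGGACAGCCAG
Msh5 intron, chr17:35034241-35034491, MEF fold 7.00: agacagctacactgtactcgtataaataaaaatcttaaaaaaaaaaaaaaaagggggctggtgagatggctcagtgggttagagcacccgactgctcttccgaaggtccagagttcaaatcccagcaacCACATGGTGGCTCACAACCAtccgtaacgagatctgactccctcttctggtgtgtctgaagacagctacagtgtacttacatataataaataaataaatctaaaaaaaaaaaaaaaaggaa
C2 intron, chr17:34874173-34874273, mESC fold 5.42 and MEF fold 5.45: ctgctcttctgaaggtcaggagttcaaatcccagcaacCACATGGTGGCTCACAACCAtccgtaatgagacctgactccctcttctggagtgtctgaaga

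The second kind is sequence of high fold that occurs once in the genome, and the third is 3 of the mESC intervals around Pou5f1, none of which overlapped a MEF interval. In these lines capitals mark bases outside the soft mask, the lower-case convention by which the assembly marks repeats and low-complexity sequence.
C2 promoter, chr17:34882563-34882663, mESC fold 5.76: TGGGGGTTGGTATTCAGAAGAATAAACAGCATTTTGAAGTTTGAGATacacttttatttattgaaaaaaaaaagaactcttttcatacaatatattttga
Upstream of H2-Q1, chr17:35313917-35313967, MEF fold 6.13: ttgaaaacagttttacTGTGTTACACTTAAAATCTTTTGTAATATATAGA
Upstream of Pou5f1, chr17:35495551-35495851, mESC fold 2.80: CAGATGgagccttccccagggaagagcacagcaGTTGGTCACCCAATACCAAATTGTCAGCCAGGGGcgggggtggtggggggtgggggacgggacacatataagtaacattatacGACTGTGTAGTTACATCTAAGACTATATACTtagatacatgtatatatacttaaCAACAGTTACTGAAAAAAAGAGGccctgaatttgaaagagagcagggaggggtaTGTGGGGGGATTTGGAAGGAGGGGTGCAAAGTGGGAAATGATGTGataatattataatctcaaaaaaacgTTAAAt
Upstream of Pou5f1, chr17:35501351-35501401, mESC fold 3.43: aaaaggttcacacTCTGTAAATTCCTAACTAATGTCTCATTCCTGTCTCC
Downstream of Pou5f1, chr17:35512401-35512451, mESC fold 2.30: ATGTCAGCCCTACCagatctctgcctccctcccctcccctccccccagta

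Silencers were about as dense in the region as elsewhere, although its genes were several times denser. The mESC list had 42.4 intervals per Mb in the region (35.7 to 49.9), against 47.1 over the other autosomal sequence, a ratio of 0.899. The MEF list had 32.9 per Mb (27.1 to 39.6), against 36.7, a ratio that was also 0.899. Set against the rest of chromosome 17, at 45.6 mESC and 34.6 MEF intervals per Mb, the ratios were 0.930 and 0.951. Of 690 autosomal windows of the same length, 183 had fewer mESC intervals per Mb and 178 had fewer MEF intervals per Mb. The window medians were 47.4 mESC and 37.1 MEF intervals per Mb, so the region stood near the lower quartile of 41.8 and 32.6. Counting only bases and midpoints outside the soft mask lowered the mESC ratio to 0.61 and the MEF ratio to 0.75.

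The genes of the region were compact, and interval counts per gene were compared with those of all genes. Each gene was given a territory that ran 10 kb beyond its body at both ends. The median territory was 25.8 kb for the protein-coding genes of the region and 37.4 kb for all 21938 protein-coding genes. At least 1 mESC interval lay in the territories of 131 of the 174 genes in the region, or 75.3%, and genome-wide the share was 75.3%. At least 1 MEF interval lay in 102 of the 174, or 58.6%, against 68.3% genome-wide.

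The intervals were short and their folds modest. Their median length was 200 bp in both lists, and they covered 33.4 kb in the mESC list and 24.8 kb in the MEF list. Intervals of 50 bp numbered 25 in mESC and 18 in MEF, and these shortest intervals made up 15.7% and 16.3% of the whole lists. Another midpoint of the list was within 5 kb for 62 mESC intervals, or 43.1%, and for 39 MEF intervals, or 34.8%, against 44.5% and 38.2% of the whole lists. The lowest, median and highest mESC folds were 2.00, 2.42 and 5.76, and the median of the whole mESC list was 2.42. The lowest, median and highest MEF folds were 2.00, 2.27 and 8.17, and the median of the whole MEF list was 2.36. A fold above 4 was given to 8 of 144 mESC intervals, or 5.56% (2.43 to 10.7), against 7.99% of the whole list. The same held for 6 of 112 MEF intervals, or 5.36% (1.99 to 11.3), against 5.92% of the whole list. Folds came in steps, since 140 mESC members and 109 MEF members had exactly the fold of another interval in their list. Over the whole lists this held for 99.2% of mESC and 99% of MEF intervals. The fold 2.71 alone stood at 8 mESC members and at 4086 intervals of the whole mESC list.

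**Figure D1:**
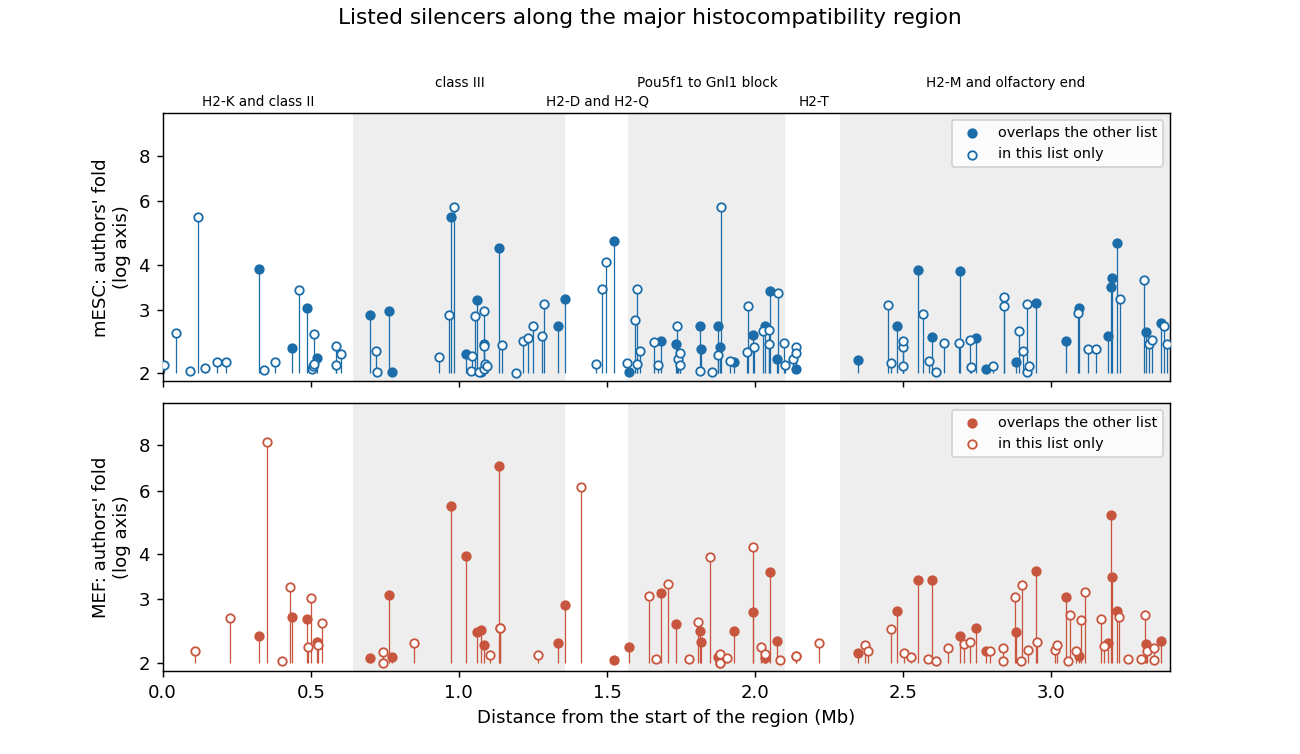
Authors' fold of each listed interval (vertical log axis, linear ratio) against the distance of its midpoint from the start of the region (Mb), with the mESC list above and the MEF list below; filled points overlap the other list, open points do not, and shading separates the 6 subregions. Most points lie between folds of 2 and 3, the mESC maximum is 5.76 at C2 and near Ier3, and the MEF maximum is 8.17 in an H2-Ob intron.

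The intervals of highest fold lay beside genes of several classes, and most of them were soft-masked in full. In the mESC list the top fold of 5.76 was shared by 2 intervals. One stood at -513 bp from an annotated start of C2, which encodes a complement protease component, and is printed above. The other, chr17:35785601-35785651, lay between genes, 36.1 kb from the start of Ier3, an immediate early response gene. The next was chr17:34018631-34018681, with a fold of 5.42, near Ring1, which encodes a Polycomb ubiquitin ligase. A fold of 5.42 was also given to the C2 intron interval printed above. The fifth was chr17:35422651-35422726, with a mESC fold of 4.65. It lay 2.16 kb from the start of the class I gene H2-Q6 and overlapped a MEF interval with a fold of 2.04. The Ier3, Ring1, C2 intron and H2-Q6 intervals were each 100% soft-masked, and the C2 promoter interval was 53% soft-masked. The Ring1 and C2 intron sequences recurred elsewhere in the genome, so their reads can align in several places.

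In the MEF list the highest fold, 8.17, belonged to a 50 bp interval in an intron of H2-Ob, which encodes a class II chain of the regulator H2-O. It lay 5.53 kb from the annotated gene start of H2-Ab1, the gene of the classical class II A beta chain. The nearest annotated transcript start of H2-Ab1 was 11.1 kb away. The second, at 7.00, lay in an intron of the meiotic DNA repair gene Msh5 and overlapped a mESC interval with a fold of 4.43 by 240 bp. The third, at 6.13, lay 6.46 kb from the start of the class I gene H2-Q1, for which no mESC interval stood nearer than 43.6 kb. The C2 intron interval followed at 5.45. The fifth, chr17:37099611-37099861, had a fold of 5.12 and lay 1.46 kb from the start of the olfactory receptor gene Olfr91. It overlapped a mESC interval with a fold of 3.46. The H2-Ob, Msh5 and C2 intron intervals were 100% soft-masked, the Olfr91 interval 90% and the H2-Q1 interval 32%. Except for the H2-Q1 interval, most of their sequence recurred elsewhere in the genome, so reads can align in several places. The longest mESC interval, chr17:34622601-34623751, covered 1150 bp in the lysosomal thioesterase gene Ppt2 with a fold of 2.01. The longest MEF interval, chr17:35891301-35892051, covered 750 bp of an intron of the helicase gene Dhx16 with a fold of 2.77, and overlapped a mESC interval with a fold of 2.55.

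Of the 144 mESC intervals, 46 overlapped the MEF list by at least 1 bp. That was 31.9% (24.4 to 40.2), against 36.6% of the whole mESC list. Of the 112 MEF intervals, 46 overlapped the mESC list, or 41.1% (31.9 to 50.8), against 47.3% of the whole MEF list. The overlaps formed 46 pairs, of which 7 had identical coordinates, with a median overlap of 243.5 bp. Across the 46 pairs the folds had a Spearman correlation of 0.373, a description only, since both lists share the genomic sequence and the same input plasmid. Shared intervals had higher median folds, at 2.65 for shared and 2.35 for 98 mESC-only intervals, and at 2.45 for shared and 2.21 for 66 MEF-only intervals. The whole lists showed the same order, with 2.53 against 2.36 in mESC and 2.46 against 2.29 in MEF. Shared intervals were also longer, with a median of 250 bp in each list, against 150 bp for the intervals of 1 list only. A longer interval meets the 1 bp rule more easily, and the same lengths were not taken over the whole lists. Of all intervals in the region, 56.25% came from the mESC list (49.9 to 62.4), and over the whole series the share was 56.2%.

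Several pairs stood out by their folds in both lists. The pair at chr17:36450951-36451301, with identical coordinates, had folds of 3.87 in mESC and 3.40 in MEF and lay 11.2 kb from the start of the class I gene H2-M10.4. The mESC interval chr17:36848383-36848664 in an intron of Trim26, a tripartite motif gene, had a fold of 3.13, and its MEF partner had a fold of 3.60. The mESC interval chr17:35949451-35949851 had a fold of 3.37, and its MEF partner had 3.58. Upstream of Olfr91, the mESC interval chr17:37103971-37104221 had a fold of 3.67, and its MEF partner had 3.46. These 4 pairs were singled out after their values were seen. The mESC interval at chr17:35949451-35949851 was 95% soft-masked and the one upstream of Olfr91 was 100% soft-masked. Part of the sequence of both recurred elsewhere in the genome. The mESC intervals of the H2-M10.4 and Trim26 pairs were 17.1% and 43.8% soft-masked.

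The region was read in 6 subregions bounded by annotated genes, and the listed silencers were spread unevenly over them. The block between the last H2-Q gene and the first H2-T gene, which holds Pou5f1, Ddr1, Ier3 and Gnl1, was the densest in both lists. It had 36 mESC intervals, or 67.8 per Mb (47.5 to 93.8), and 25 MEF intervals, or 47.1 per Mb (30.5 to 69.5). The H2-D and H2-Q stretch had 5 mESC intervals, or 23.6 per Mb (7.66 to 55.1), and 2 MEF intervals, or 9.44 per Mb (1.14 to 34.1). The H2-T stretch had 4 mESC intervals, or 21.7 per Mb (5.90 to 55.5), and 3 MEF intervals, or 16.3 per Mb (3.35 to 47.5). These were the thinnest stretches in both lists. They were also the stretches with the most repeated sequence, since 40.4% and 35.6% of their 50-base words occurred again in the genome, against 7.31% in the Pou5f1 block and 13.8% over the region. Reads from such words can align in several places, and the labels do not say how the authors placed them. The part of repeated sequence in these low densities was not tested.

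The class III stretch had 32 mESC intervals, or 44.8 per Mb (30.6 to 63.2), and 18 MEF intervals, or 25.2 per Mb (14.9 to 39.8). The H2-K and class II stretch had 21 mESC intervals, or 32.4 per Mb (20.1 to 49.6), and 13 MEF intervals, or 20.1 per Mb (10.7 to 34.3). Only the last subregion, with the H2-M genes and the olfactory receptors, had fewer mESC than MEF intervals. It held 46 mESC intervals, or 41.5 per Mb (30.3 to 55.3), and 51 MEF intervals, or 45.96 per Mb (34.2 to 60.4). The mESC share there was 47.4% (37.2 to 57.8), an interval that includes the 56.2% of the whole series. In the other subregions the mESC share lay between 57.1% and 71.4%.

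**Figure D2:**
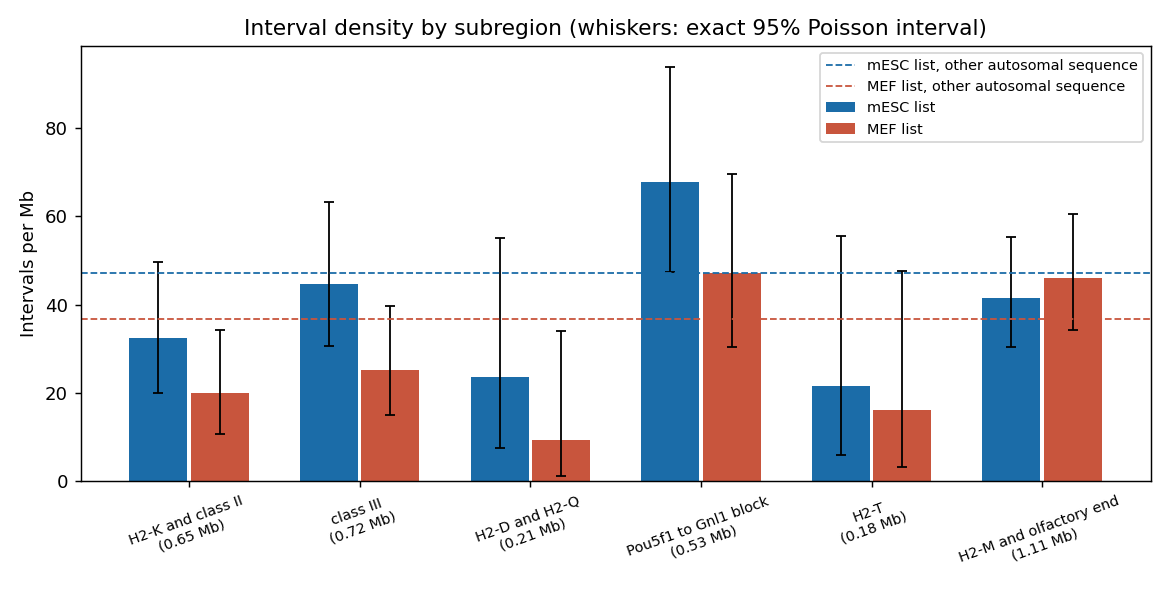
Listed intervals per Mb (vertical axis) in the 6 subregions, with the mESC list left of the MEF list; whiskers are exact 95% Poisson intervals and dashed lines give the density over the other autosomal sequence. The Pou5f1 to Gnl1 block reaches 67.8 mESC and 47.1 MEF intervals per Mb, and the H2-D and H2-Q stretch has 23.6 and 9.44.

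In 100 kb bins the mESC counts ran up to 13 and the MEF counts up to 8, with medians of 4 and 3 over 34 bins. The densest bin, which starts at 34.9 Mb, held 13 mESC and 4 MEF intervals. It covers Slc44a4, Neu1, the heat shock genes Hspa1b, Hspa1a and Hspa1l, and Lsm2. All 4 MEF intervals in it overlapped mESC intervals. Of the 13 mESC intervals, 4 lay in introns of Lsm2, which encodes an RNA-processing protein, and their folds were 2.38, 2.40, 2.98 and 2.06. The next densest were the bin at 35.7 Mb, beside the collagen receptor gene Ddr1, with 8 mESC and 8 MEF intervals, and the bin at 35.9 Mb with 8 mESC and 6 MEF intervals. The bin at 37.2 Mb, in the olfactory cluster, had 7 of each. Over the 34 bins, which both lists share, the Spearman correlation of the mESC and MEF counts was 0.52. That of the counts with the share of repeated words was -0.05 for mESC and -0.23 for MEF.

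**Figure D3:**
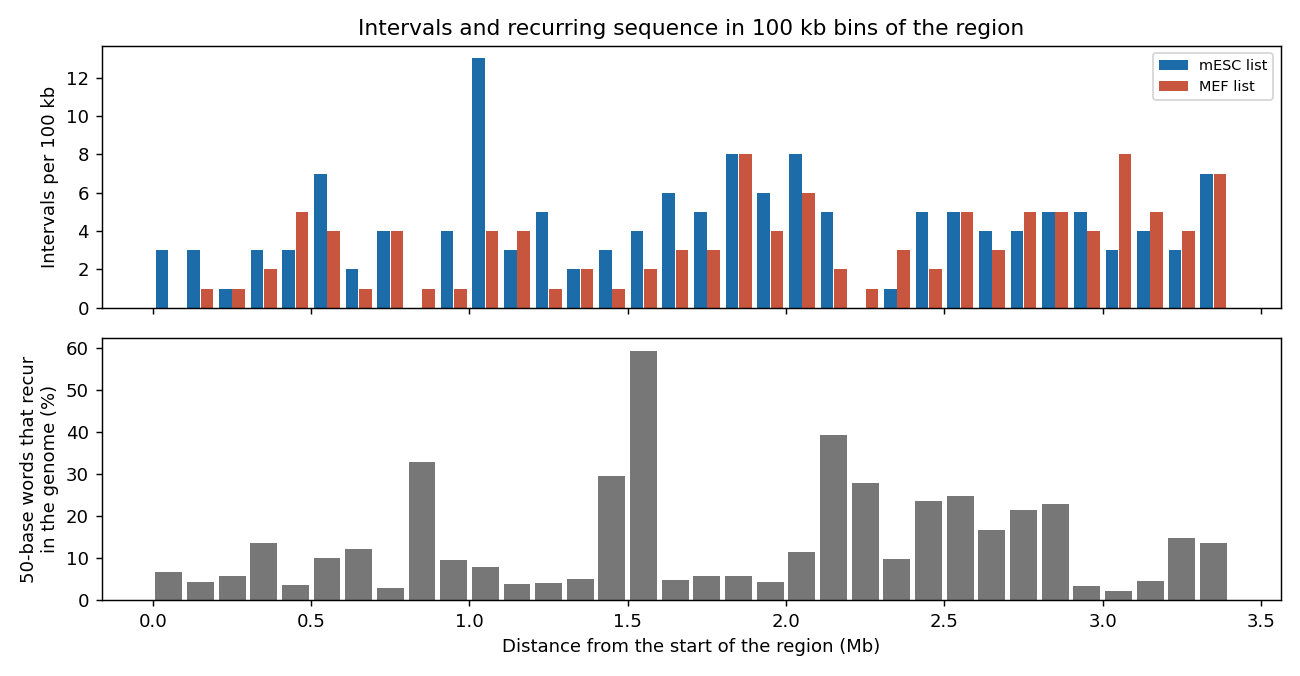
Listed intervals per 100 kb bin (upper axis, mESC left of MEF) and the share of 50-base words that recur in the genome (lower axis, %) against the distance from the start of the region (Mb). The bin that starts 1 Mb from the region's start has 13 mESC and 4 MEF intervals, and the tallest grey bars stand in the H2-Q and H2-T stretches.

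Long stretches held no interval of either list. The longest, chr17:36116151-36247501, ran for 131 kb and holds H2-T3, whose product is the thymus leukaemia antigen. The second, chr17:34501941-34599611, was 97.7 kb long and holds the receptor gene Notch4, Gpsm3 and Pbx2. The third, chr17:34126333-34223951, was 97.6 kb long and holds H2-DMb1 and H2-DMb2, which encode chains of the peptide exchange factor of class II, together with Psmb8, Psmb9, Tap1 and Tap2 of the class I peptide supply. The median spacing of intervals of both lists together was 9.77 kb. In the mESC list alone the longest gap was 209 kb at chr17:36038601-36247501, and the next was 159 kb at chr17:34673871-34832551, which includes C4b and Cyp21a1. In the MEF list alone the longest was 162 kb at chr17:34437651-34599651.

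Counts around the antigen presentation genes are set beside all protein-coding genes, of which 75.3% had a mESC and 68.3% had a MEF interval in their territory. For the protein-coding genes of the region, whose territories were shorter, the shares were 75.3% and 58.6%. This applies to the further gene lists below as well. The class I heavy chain list held 30 genes, and 32 mESC and 23 MEF intervals lay in their territories. The list includes pseudogenes, such as H2-K2, H2-Q3 and H2-M6-ps. Of the 30, 19 had a mESC interval and 20 had a MEF interval. H2-T22 and H2-T23, neighbouring nonclassical class I genes whose territories overlap, each had 4 mESC and 2 MEF intervals, and H2-M10.6 had 4 mESC and 1 MEF interval. The classical gene H2-K1 had 1 mESC and 0 MEF intervals, and H2-D1 had 1 of each, a shared pair about 4.02 kb from its start in mESC and 3.88 kb in MEF, with folds of 3.20 and 2.90. H2-K2, H2-Q2, H2-Q7, H2-T3 and H2-M10.1 had none in either list. These genes resemble each other closely, so reads could be split between copies, which makes their counts uncertain.

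Of the 9 class II chain genes, 5 had a mESC interval and 5 had a MEF interval, with 5 intervals of each list in their territories. H2-Eb2 had 1 mESC and 2 MEF intervals, H2-DMa and H2-Ob had 1 of each, and H2-Ab1 had 0 mESC and 1 MEF interval. H2-DMb1 and H2-DMb2 had none. Among the 5 antigen processing genes, Tap2, a subunit of the peptide transporter, had 1 mESC and 1 MEF interval, and Tapbp, which encodes tapasin, had 1 mESC and 0 MEF intervals. Tap1, the other transporter subunit, and the immunoproteasome genes Psmb8 and Psmb9 had none.

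The mESC list is the larger one, with 56.2% of all intervals, and its counts were also the higher ones around class III genes. The 17 complement and class III genes had 20 mESC and 12 MEF intervals, or 56.97 per Mb (34.8 to 88.0) and 34.2 per Mb (17.7 to 59.7), ranges that overlap. A mESC interval was found for 14 of the 17 and a MEF interval for 9, against 75.3% and 68.3% of all protein-coding genes. Hspa1l, a heat shock protein 70 gene, had 6 mESC and 2 MEF intervals, Hspa1a had 3 and 2, and Msh5 had 2 and 3. The territories of Hspa1l and Hspa1a overlap, so some intervals count for both. The 6 mESC intervals of Hspa1l include those in introns of Lsm2 described above, and 1 lay in the Hspa1l body. C4b, which encodes complement component 4, had 0 mESC and 1 MEF interval, and Cyp21a1, a steroid hydroxylase gene, and Nelfe had none. The 9 inflammation genes had 6 mESC and 4 MEF intervals, with 2 of each at the helicase gene Ddx39b, 2 and 1 at Ier3 and 1 of each at Aif1. The cytokine genes Tnf and Lta had none within 10 kb.

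Among the 16 chromatin and transcription genes, 12 had a mESC interval and 7 had a MEF interval, against 75.3% and 68.3% of all protein-coding genes, with 14 mESC and 11 MEF intervals in their territories. Pou5f1 had 3 mESC and 0 MEF intervals. Atf6b, a stress-response transcription factor gene, and Zfp57, which encodes a zinc finger protein that maintains imprints, each had 1 mESC and 3 MEF intervals. The bromodomain gene Brd2 and Ring1 had 1 of each, and the histone chaperone gene Daxx and Tcf19 had 1 mESC and 0 MEF intervals. Ehmt2, which encodes the H3K9 methyltransferase G9a, Notch4 and Mdc1 had none.

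The 6 tripartite motif genes had 1 mESC and 6 MEF intervals, or 7.91 per Mb (0.200 to 44.1) and 47.4 per Mb (17.4 to 103), and these ranges overlap. Trim26 had 1 mESC and 2 MEF intervals, Trim31 and Trim39 had 0 mESC and 2 MEF intervals each, and Trim15, Trim10 and Trim40 had none. The 6 butyrophilin-like genes had 5 mESC and 2 MEF intervals, with 3 mESC and 0 MEF intervals at Btnl5-ps, 2 and 0 at Btnl4, 1 and 2 at Btnl1, and none at Btnl7-ps. The 15 olfactory receptor genes had 13 mESC and 14 MEF intervals. There were 3 of each at Olfr91 and Olfr96, 2 mESC and 4 MEF at Olfr95, and none at Olfr753-ps1. The mESC count takes in chr17:37311659-37311859 near Olfr101, which lies past the end bound and is not among the region's silencers. The 8 epithelial genes had 9 mESC and 6 MEF intervals, with 5 and 2 at Sfta2, 5 and 1 at the overlapping Mucl3, and 2 and 1 at 2300002M23Rik. For comparison, the median over all protein-coding genes was 2 mESC and 1 MEF interval per territory.

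Pou5f1 had mESC intervals on both sides and no MEF interval nearby. The gene lies on the plus strand at chr17:35506018-35510772. Of the 4 mESC intervals within 25 kb of its start, the 3 described here lay at -10.32, -4.64 and 6.41 kb, with folds of 2.80, 3.43 and 2.30, and their sequences are printed above. None overlapped the Pou5f1 body, and none overlapped a MEF interval. The nearest MEF intervals were chr17:35475401-35475901, at -30.37 kb with a fold of 2.22, which overlapped a mESC interval, and chr17:35540257-35540307, at 34.26 kb with a fold of 3.06.

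Counted by distance from the start of Pou5f1, the mESC list had 3 intervals within 10 kb, 4 within 25 kb, 6 within 50 kb and 10 within 100 kb. The MEF list had 0, 0, 2 and 5. Over all protein-coding genes the medians were 1, 2, 4 and 9 in mESC and 0, 2, 3 and 7 in MEF. The mESC count of 3 or more within 10 kb was reached by 10.1% of genes, and that of 4 or more within 25 kb by 25.3%. No MEF interval within 25 kb was found for 23.9% of genes, and none within 10 kb for 53.2%. Beyond 25 kb both lists had intervals on either side of the gene, and at 100 kb both were near the genome-wide medians.

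**Figure D4:**
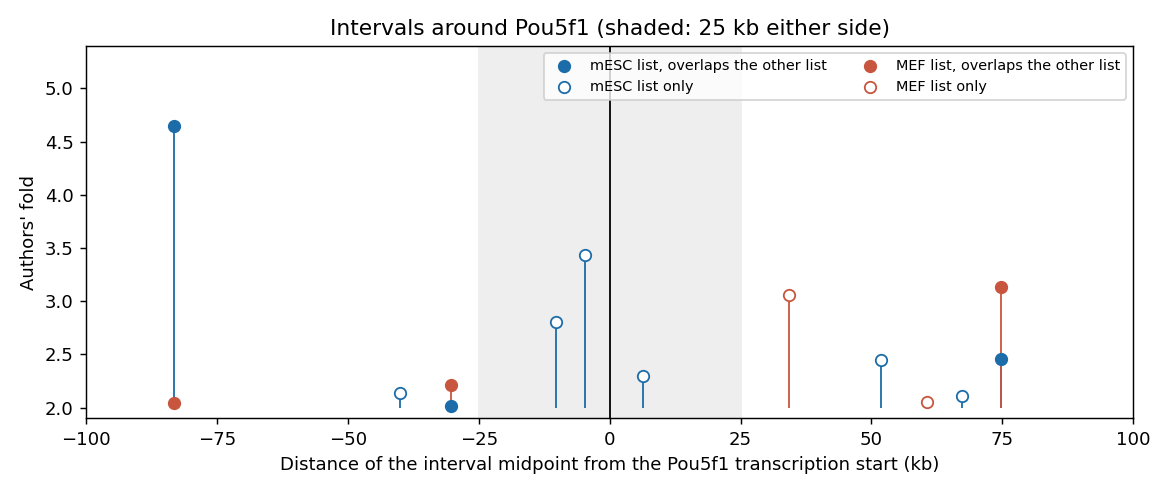
Authors' fold (vertical axis, linear ratio) of the intervals within 100 kb of the Pou5f1 transcription start against its distance from that start (kb); filled points overlap the other list and the shaded band marks 25 kb on either side. The band shows 3 of its 4 mESC intervals, with folds between 2.30 and 3.43, and it holds 0 MEF intervals.

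By annotation at the midpoint, the region's silencers lay mostly between genes and in introns. Intergenic sequence held 69 mESC intervals, or 47.9%, and 58 MEF intervals, or 51.8%, against 48.8% and 49.1% of the whole lists. Introns held 53 mESC intervals, or 36.8%, and 40 MEF intervals, or 35.7%, against 45.5% and 45.2% of the whole lists. Introns made up 30.5% of the bases of the region and 42.3% of autosomal bases. The intron share was thus 1.20 of the base share in mESC and 1.17 in MEF, against 1.08 and 1.07 over the autosomal intervals of the lists. Promoters, taken as 1 kb either side of an annotated start, held 16 mESC intervals, or 11.1% (6.49 to 17.4), against 3.51% of the whole mESC list. They held 12 MEF intervals, or 10.7% (5.66 to 18.0), against 3.40% of the whole MEF list. Promoters also made up 18.4% of the bases of the region and 4.47% of autosomal bases. The share at promoters was thus 0.604 of the base share in mESC and 0.582 in MEF. Over the autosomal intervals of the lists it was 0.785 and 0.764. No midpoint of either list lay in a coding exon, which make up 5.13% of the region; taken as 3 counts of the total, 0 of 144 allows a share of up to 2.08% and 0 of 112 a share of up to 2.68%, and the exact binomial upper limits are 2.53% and 3.24%. The whole lists had 0.53% mESC and 0.537% MEF midpoints in coding exons.

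**Figure D5:**
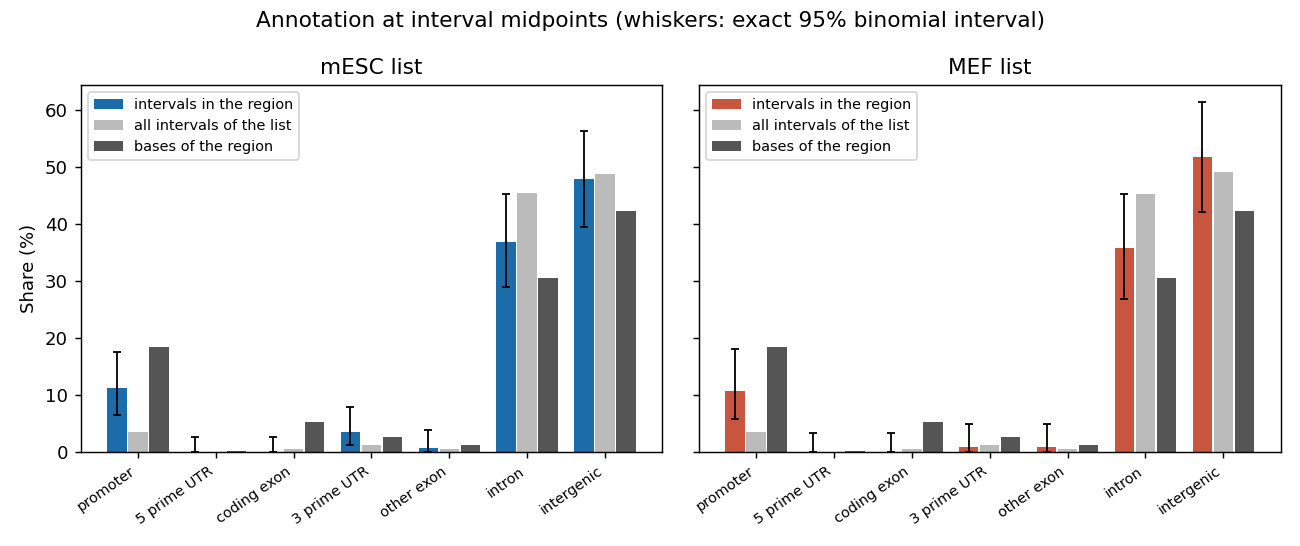
Share of interval midpoints in each annotation category (%), for the intervals in the region (colour, whiskers are exact 95% binomial intervals), all intervals of the list (light grey) and the bases of the region (dark grey), with the mESC list left of the MEF list. Promoters hold 11.1% of mESC and 10.7% of MEF intervals in the region, below the 18.4% of its bases.

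How many promoters of the region belong to immune genes was not counted, so promoter intervals are only named here. Outside the listed genes, a mESC interval with a fold of 2.15 lay at the promoter of H2-Pa. Among the listed genes, mESC intervals stood at promoters of C2, Hspa1l, Msh5, H2-M5, Olfr95 and Olfr96, with folds of 5.76, 2.02, 2.39, 2.95, 3.61 and 2.60. MEF intervals stood at promoters of Hspa1l, 2300002M23Rik, Ddr1, Olfr94 and Olfr96, with folds of 2.46, 2.05, 2.60, 2.05 and 2.26. The Hspa1l interval, chr17:34973456-34973606, had identical coordinates in both lists and lay 828 bp past the start. The Olfr96 intervals overlapped each other, with midpoints at -308 bp from the start in mESC and at -337 bp in MEF. The 3′ UTRs held 5 mESC midpoints, or 3.47% (1.14 to 7.92), and 1 MEF midpoint, or 0.893% (0.0226 to 4.87), against 1.19% and 1.24% of the whole lists. They made up 2.53% of the bases of the region and 1.23% of autosomal bases. A 50 bp interval in the 3′ UTR of the class I gene H2-Q4 had a mESC fold of 3.43. Its sequence was 100% soft-masked and recurred elsewhere in the genome, so its reads can align in several places. A shared pair lay in the 3′ UTR of Olfr91, with folds of 2.54 in mESC and 2.28 in MEF.

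The silencers of the region held more repeat-masked sequence than the lists as a whole. The mean soft-masked share was 56.6% in mESC intervals, against 40.9% over the whole mESC list, and 51.004% in MEF intervals, against 38.5%. The bases of the region were 32.2% soft-masked and those of the autosomes 33.5%. Fully masked intervals numbered 25 in mESC, or 17.4% (11.6 to 24.6), against 10.1% of the list, and 17 in MEF, or 15.2% (9.10 to 23.2), against 9.32%. More than 50% of the 50-base words recurred in the genome for 19 mESC intervals, or 13.2% (8.13 to 19.8), against 6.83%, and for 9 MEF intervals, or 8.04% (3.74 to 14.7), against 6.03%. The mean GC content was 43.1% in mESC and 41.9% in MEF intervals, against 40.3% and 40.1% over the whole lists and 46.96% over the bases of the region.

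Members also shared short words with each other. A word of 20 bases present in another member of the same list, simple repeats left out, was found in 52 mESC members, or 36.1% (28.3 to 44.5), and in 45 MEF members, or 40.2% (31.03 to 49.9). The same count was not made for other sets of intervals, so it does not set the members apart. The word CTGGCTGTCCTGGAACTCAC (either strand) lay in 11 mESC members, or 7.64% (3.87 to 13.3), and in 13 MEF members, or 11.6% (6.33 to 19.0). It lay in 1.96% of the whole mESC list, 2.15% of the whole MEF list and 1.29% of 200 bp windows of the region. The word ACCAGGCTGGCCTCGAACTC lay in 11 mESC and 8 MEF members, or 7.64% and 7.14%, against 1.68% and 2.12% of the whole lists and 0.824% of the windows. Both are letters of the B1 family, a short interspersed repeat of rodents, and the H2-Ob interval with the highest MEF fold consists mostly of these words.

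The word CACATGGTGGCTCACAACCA is part of the B2 family, another short interspersed repeat of rodents. It lay in 12 mESC members, or 8.33% (4.38 to 14.1), and in 8 MEF members, or 7.14% (3.13 to 13.6). The whole lists had it in 3.29% of mESC and 1.88% of MEF intervals, and 0.988% of the windows held it. Of its members, 5 in mESC and 7 in MEF were shared, among them the C2 and Msh5 intervals printed above. The 3 words were chosen for being the most frequent in the members, so their shares there are a description, and intervals longer than 200 bp had more room to hold one.

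Motifs of immune and pluripotency regulators were counted in the members and set beside the whole lists and the region. Each was searched on both strands of the 300 bp around a midpoint. The interferon-stimulated response element, GAAANNGAAA, lay in 3 of 144 mESC windows, or 2.08%, and in 6 of 112 MEF windows, or 5.36% (1.99 to 11.3), against 4.40% and 4.54% over the whole lists and 4.22% of windows tiling the region. The NF-kB motif, GGGANNTTCC, lay in 2 mESC windows, or 1.39%, and in 0 MEF windows, against 0.712% and 0.614% of the lists and 1.24% of the region. The octamer ATGCAAAT, which Pou5f1 protein binds, lay in 3 mESC windows, or 2.08%, and in 3 MEF windows, or 2.68%, against 2.52% and 2.53% of the lists and 1.44% of the region. The AP-1 motif, TGANTCA, lay in 8 mESC windows, or 5.56%, and in 9 MEF windows, or 8.04%, against 8.17% and 9.24% of the lists and 8.63% of the region. The STAT and BCL6 motif, TTCNNNGAA, lay in 10 mESC windows, or 6.94%, and in 8 MEF windows, or 7.14%, against 9.12% and 9.68% of the lists and 9.19% of the region. The SP and KLF motif, GGGCGGG, lay in 3 windows of each list, or 2.08% in mESC and 2.68% in MEF, against 1.58% and 1.35% of the lists and 3.47% of the region. Of the Pou5f1 sequences printed above it was found only in the one at -10.32 kb. The E-box CACGTG lay in 2 mESC windows, or 1.39%, and in 3 MEF windows, or 2.68%, against 2.51% and 2.83% of the lists and 3.69% of the region.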

How the data were processed

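Each cell type has 1 table in which the authors deposited a chromosome, start, end and fold for every interval. The file headers name the fold column FC, which was read here as a linear ratio. Which libraries were divided to give it is not stated. The submitters' processing notes name Bowtie2 and SAMtools, both without a version, and the build hg38, whereas the design text gives mm10. No interval ended beyond an mm10 chromosome (0), and mm10 was used. What caller, thresholds and scaling were used, and whether libraries were pooled, is not given in the sources used here. The lowest listed fold was 2.00 in both lists.

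Members and gene lists were chosen with earlier results of these data known. Members were taken by midpoint. Sequence and soft mask came from GRCm38.p6 and genes from GENCODE M21 basic. Annotation at the midpoint took promoter first, then exon classes, intron and intergenic. Recurrence was counted over words of 50 bases on the primary assembly. Starts may count from 1 or 0, an uncertainty of 1 bp. Scripts ran in Python 3.11.15 with NumPy 2.4.6, pandas 2.3.3, SciPy 1.17.1 and numba 0.67.0 and were tested on simulated data. With 1 list per cell type, no test was made. The genes named were, for each of 10 lists, up to 3 members with the most intervals, those with none, and a fixed set (Pou5f1, H2-K1, H2-D1, H2-Ab1, Tap1, Tnf, C4b, Notch4, Ehmt2, Brd2, Ring1, Daxx, Tcf19). The intervals named were the 5 highest folds and the longest of each list, those near Pou5f1, the bounds and listed promoters, the densest bins and the longest gaps; other pairs are marked as chosen later. Values per library, the knockout experiments and other omics data were not analysed here. Alternatives covered overlap, bounds, fold cut, soft mask, promoter width, territory and motif window. Of the intervals near Pou5f1, 1 mESC interval is counted but not reported singly here.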

Additional observations from a re-analysis of the deposited data

How the results depend on the processing

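Of 44 alternatives for the main values, 36 stayed within the limits used, 8 did not, and none reversed. The limits were the counting interval for shares and densities and 1.5 times for counts of genes. For the median fold, GC and soft-masked share they were the spread of single intervals (quartiles or SD), which is wide and says little about a mean or median. Among those, the soft-masked share over intervals at or above the median fold was 64.2% in mESC and 57.8% in MEF, and the median fold of members under 50% soft-masked was 2.27 in mESC and 2.24 in MEF. Counting only unmasked bases and midpoints, the mESC density ratio to the other autosomes was 0.61. With promoters of 5 kb either side, 62.5% of mESC and 55.4% of MEF intervals lay at promoters, by construction of the wider window, and with promoters of protein-coding genes only the mESC share was 4.86%. Listed genes with an interval numbered 85 in mESC and 70 in MEF. With gene bodies alone they were 22 mESC and 17 MEF, and with intervals at or above the median fold 54 mESC and 38 MEF, as fewer bases or intervals were counted. For single genes and motifs, 61 of 92 alternatives kept the value and 31 moved it. Subregion densities were not varied. No paired analysis was possible because there is 1 list per cell type and no value per library. The lists hold no depth, so no interval has an error of its own, and repeated class I sequence limits what counts there can show.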
